A study of Homo sapiens with 8 samples.

Results

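The tissue factor and plasminogen system is described here by 9 genes, *F3*, *TFPI*, *TFPI2*, *PLAU*, *PLAT*, *PLAUR*, *SERPINE2*, *THBD* and *ANXA2*, out of 20030 rows of an RNA-seq table. They were picked by symbol, and *F3* was among the picks because its level was already known to be low in every knockdown. The cells were HCT-116, an established line from a human colorectal carcinoma, and RNA-seq was done on 8 libraries. Of these, 2 had received a control siRNA (siNC), 3 had *HHEX* knocked down (siHHEX), 2 had both *YAP1* and *WWTR1*, the gene of TAZ, knocked down (siYAP/TAZ), and 1 was aimed at the 4 TEAD genes together (siTEAD1/2/3/4). All groups were parental cells with no other treatment given in the labels. The libraries of a knockdown carry the numbers that the methods give to different siRNAs, so they differed in siRNA as well, and whether they came from separate cultures is not stated. The sample identifier of siHHEX 3 lies outside the run of the others, and whether this library was made with them is not stated. Every p value therefore measures the spread between these libraries, which may be partly technical. Levels are in FPKM, fragments scaled by transcript length and library total, and can be set side by side between genes. Read counts were not used here, so the depth of a library is unknown.

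Tissue factor, the product of *F3*, is a membrane receptor that binds coagulation factor VII on the cell surface and starts the extrinsic pathway of blood clotting. TFPI shuts down the complex it forms, and thrombomodulin (*THBD*) turns thrombin towards the anticoagulant protein C. On the side that dissolves clots and matrix, urokinase (*PLAU*) and tissue-type activator (*PLAT*) cut plasminogen into plasmin, urokinase being held at the membrane by its receptor (*PLAUR*), while serpins such as protease nexin-1 (*SERPINE2*) block these enzymes. Annexin A2 (*ANXA2*) pairs with S100A10 to hold plasminogen at the cell surface. Carcinoma cells can carry both arms on the same membrane. HHEX is a homeobox transcription factor, and YAP and TAZ are coactivators that reach DNA through the TEAD factors.

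The promoters are shown for the initiator and for the 2 other genes that passed the test in a comparison with siNC. In the RefSeq promoter table for GRCh38.p14, which spans 250 bases before to 50 after each start, 7 of the 9 members were matched, with 9 promoters, and *PLAT* and *THBD* were not. All 3 sequences are on the minus strand and are written 5′ to 3′. The *F3* sequence is the whole 250 bases before the start (chr1:94541760-94542009), that of *TFPI* covers bases 250 to 58 before it (chr2:187554493-187554685), and that of *ANXA2* bases 128 to 92 (chr15:60398078-60398114), since annotated exons of other transcripts of the gene overlap these 2 windows. For *TFPI* everything outside such exons is shown, and for *ANXA2* an exon-free stretch that holds a motif. Capitals mark the AP-1 motif TGANTCA and the SP1 motif GGGCGG or CCGCCC.
F3: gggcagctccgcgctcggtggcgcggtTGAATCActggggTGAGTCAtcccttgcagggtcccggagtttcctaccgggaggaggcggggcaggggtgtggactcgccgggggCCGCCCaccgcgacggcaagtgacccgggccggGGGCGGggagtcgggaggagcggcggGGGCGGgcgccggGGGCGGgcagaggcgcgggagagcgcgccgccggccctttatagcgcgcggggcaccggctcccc
TFPI: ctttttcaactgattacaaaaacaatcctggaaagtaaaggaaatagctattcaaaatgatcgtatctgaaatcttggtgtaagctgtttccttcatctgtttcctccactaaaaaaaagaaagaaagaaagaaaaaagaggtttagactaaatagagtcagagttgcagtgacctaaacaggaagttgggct
ANXA2: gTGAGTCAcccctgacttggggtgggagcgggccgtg

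The *F3* sequence had a GC content of 78% and the printed part of the *TFPI* promoter 34.2%. *F3* had 2 AP-1 matches, 223 and 210 bases before the start, and 4 SP1 matches. *ANXA2* had 1 AP-1 match, 127 bases before its start, as had *PLAUR* and *TFPI2* at 186 and 87 bases, while *TFPI* had no match of either motif. Counted over both strands and the full windows, AP-1 matches occurred in 44.4% of the members' promoters, against 7.71% of all 35116 promoters in the table and 5.02% of the 12303 promoters of tested genes. For SP1 the shares were 66.7%, 45% and 69.1%. The TEAD core CATTCC or GGAATG was in 0 of the 9 member promoters, against 14% of all promoters and 11.2% of those of tested genes. These are counts of letters in a short window, with no binding data behind them, and TEAD sites farther from the start would not be seen.

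Of the cell type markers, mainly epithelial ones were expressed, which does not by itself identify the labelled line. Of the 6 epithelial markers, the keratins *KRT8*, *KRT18* and *KRT19* and *EPCAM* were abundant, *CDH1* lay between 8.16 and 15.7 FPKM, and *VIL1* stayed at or near 0. The 5 endothelial markers summed to at most 0.221 FPKM in any library, so endothelial cells, a usual source of *THBD*, *TFPI* and *PLAT*, were barely represented. The 4 leukocyte markers summed to between 3.57 and 7.33 FPKM, nearly all of it *CD68*, with *PTPRC*, *CD14* and *CD3E* at 0.122 FPKM or less, and the 4 fibroblast markers to between 0.726 and 2.44 FPKM, mostly *COL1A1*. The summed epithelial markers were lowest in siYAP/TAZ, at 2027 and 1973 FPKM against 3371 and 3513 FPKM in siNC. Their part in the siYAP/TAZ differences below was not tested.

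The targets of the siRNAs give the size of each knockdown. *HHEX* was at 8.60 and 9.06 FPKM in siNC and at 3.25, 3.54 and 1.85 FPKM in siHHEX, while siYAP/TAZ held 4.80 and 7.12 FPKM, a difference from siNC of -0.52 on log2(FPKM + 1) that did not pass (limma, adjusted p = 0.196). *YAP1* was at 20.2 and 19.7 FPKM in siNC and 6.90 and 8.39 FPKM in siYAP/TAZ, but also at 5.77 and 6.93 FPKM in siHHEX 1 and 3, while siHHEX 2 held 17.4 FPKM. *WWTR1* was at 6.80 and 6.72 FPKM in siNC and 2.64 and 2.58 FPKM in siYAP/TAZ. In siHHEX it was at 5.12, 6.12 and 8.55 FPKM (limma, adjusted p = 0.820). In siTEAD1/2/3/4, *TEAD4* was at 5.56 FPKM against 20.3 and 21.3 FPKM in siNC, whereas *TEAD3* was at 9.08 FPKM against 7.36 and 6.99 FPKM. *TEAD1* was at 9.02 FPKM there against 18.3 and 19.0 FPKM in siNC, and *TEAD2* at 2.73 FPKM against 4.10 and 3.47 FPKM. *TEAD1* was also low in siHHEX, at 6.99, 10.2 and 5.30 FPKM, a fall by 1.25 on log2(FPKM + 1) (limma, adjusted p = 0.0064), or by 0.92 after a correction of each library for transcript GC content and length (adjusted p = 0.0205). *YAP1* fell in siHHEX by 1.07 (adjusted p = 0.0429), and its difference was -0.77 after the correction (adjusted p = 0.172). In siHHEX *TEAD2* rose by 0.78 (adjusted p = 0.0071), or had a difference of 0.45 after the correction (adjusted p = 0.0986). In siYAP/TAZ *TEAD4* fell by 0.63 (adjusted p = 0.0250).

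*F3* is on chromosome 1 from 94529173 to 94541759 on the minus strand of GRCh38, with 6 exons. Its level was 79.6 and 77.7 FPKM in siNC, 20.3, 17.9 and 20.6 FPKM in siHHEX, 11.3 and 10.4 FPKM in siYAP/TAZ, and 9.93 FPKM in siTEAD1/2/3/4. No group overlapped another, and every knockdown library lay far under both controls. On average 24.9% of the siNC level was left in siHHEX, 13.8% in siYAP/TAZ and 12.6% in siTEAD1/2/3/4. On the log2(FPKM + 1) scale used throughout, which understates changes of low genes, the differences from siNC were -1.95, -2.75 and -2.87. In each of the 3 knockdowns this was the most negative of 10677 values, those of every gene that reached 1 FPKM in 2 or more libraries. Since *F3* was chosen for this pattern, these values are a description and carry no test. The comparisons also share the same 2 siNC libraries. In siNC, *F3* ranked 696 of all genes by level.

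The choice of *F3* used its levels in both knockdowns but not the difference between them, which was tested. The test was limma with Benjamini-Hochberg adjustment over the 10677 genes, and its p is not wholly independent of the choice. *F3* was lower in siYAP/TAZ than in siHHEX, with a log2 difference of -0.80 (SE, the standard error, 0.118, adjusted p = 0.0041). The call held in 12 of 12 alternative fits, with differences between -1.01 and -0.75. It was lost by the criterion of the study, which asks for more than 2-fold and for p under 0.05 without adjustment, whether the fold was taken on log2(FPKM + 1) or as a ratio of mean FPKM. Counts of alternatives given for single genes are of such fits and leave that criterion out. Within siHHEX, library 2 kept the most *YAP1*, 17.4 FPKM, and had the lowest *F3* of the 3, 17.9 FPKM. Library 2 also held the most *HHEX*, 3.54 FPKM, and the most *TEAD1*, 10.2 FPKM. Any link between these levels and that of *F3* was not tested.

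**Figure D1:**
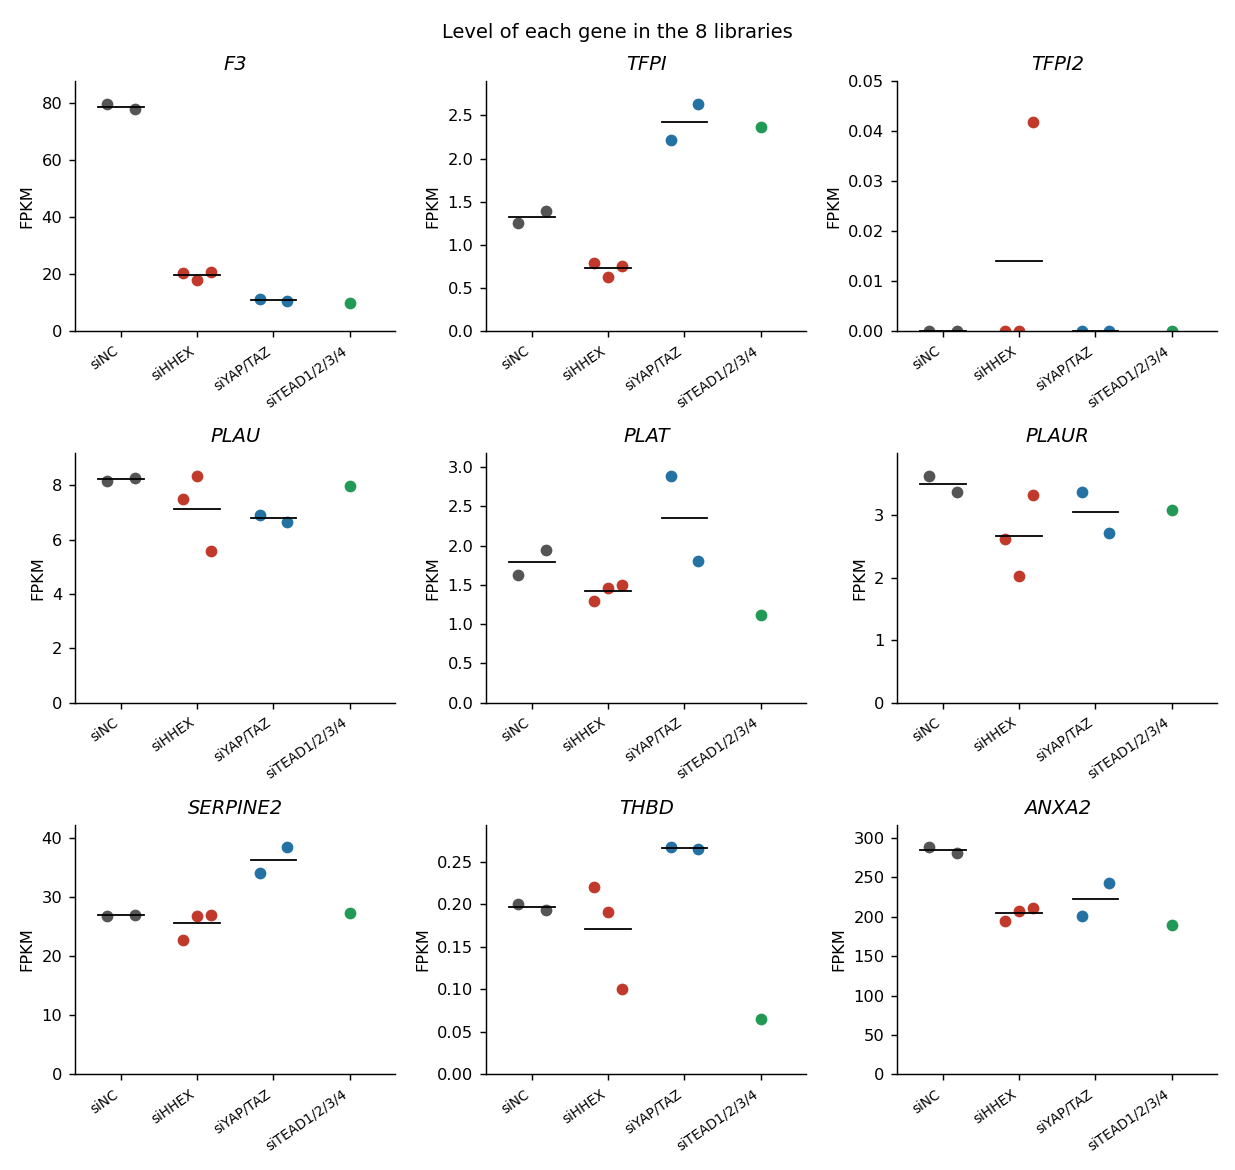
FPKM of each of the 9 genes (vertical axes, linear from 0, each with its own scale) in the 8 libraries, grouped by siRNA. Points are libraries and black lines are means of groups with more than 1 library. *F3* stands near 78.6 FPKM in siNC and under 21 in every knockdown library, *TFPI* is highest in siYAP/TAZ and siTEAD1/2/3/4, and *TFPI2* is listed at 0 in all but 1 library.

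*TFPI*, the inhibitor of the tissue factor complex, lies on chromosome 2 from 187464230 to 187565760. It was low throughout, at 1.25 and 1.40 FPKM in siNC, 0.791, 0.628 and 0.752 FPKM in siHHEX, 2.21 and 2.64 FPKM in siYAP/TAZ and 2.36 FPKM in siTEAD1/2/3/4. The siHHEX libraries were all below the controls and the other knockdowns all above them. It was kept for testing through its other libraries, as every siHHEX value was under 1 FPKM. In siHHEX, *TFPI* fell by 0.43 in log2 units (SE 0.124, adjusted p = 0.0292). The call stood in 4 of 12 alternatives. It was lost without siHHEX 1 (adjusted p = 0.0546), siNC 1 (adjusted p = 0.160) or siNC 2 (adjusted p = 0.205), with no filter on low values (adjusted p = 0.0617) and with library medians equalised (adjusted p = 0.0513). After the GC and length correction the siHHEX difference turned to 0.065 (adjusted p = 0.822). The *TFPI* transcript has a GC content of 34.7%, the lowest of the 7 members that passed the filter, and in the siHHEX libraries the change of a gene rose with GC content across 10617 genes (Spearman coefficients 0.679, 0.599 and 0.755).

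In siYAP/TAZ, *TFPI* rose by 0.56 (SE 0.136, adjusted p = 0.0391), to 183% of the siNC mean in FPKM. The GC trend was small there (Spearman coefficients 0.0601 and -0.0518), and the corrected value was 0.60 (adjusted p = 0.0488). This call stood in only 3 of 11 alternatives. It was lost without siYAP/TAZ 2 (0.47, adjusted p = 0.191) and with a pseudocount of 0.1 (adjusted p = 0.0605). The siTEAD1/2/3/4 difference was 0.54, with no replicate. Between siYAP/TAZ and siHHEX *TFPI* differed by 0.99 (SE 0.124, adjusted p = 0.0038), or by 0.53 after the correction (adjusted p = 0.0604). The direction was the same in all 12 alternatives and the call held in 10.

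The FPKM of *F3* was 63.8 and 55.6 times that of *TFPI* in the siNC libraries. The ratio was 25.7, 28.5 and 27.4 in siHHEX, 5.11 and 3.94 in siYAP/TAZ and 4.20 in siTEAD1/2/3/4. Between siNC and siHHEX both genes were lower in siHHEX, and between siHHEX and siYAP/TAZ mean *F3* went from 19.6 to 10.8 FPKM while mean *TFPI* went from 0.724 to 2.42 FPKM. The ratio is of transcripts, and the choice of *F3* for its low level in the knockdowns bears on its direction against siNC.

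**Figure D2:**
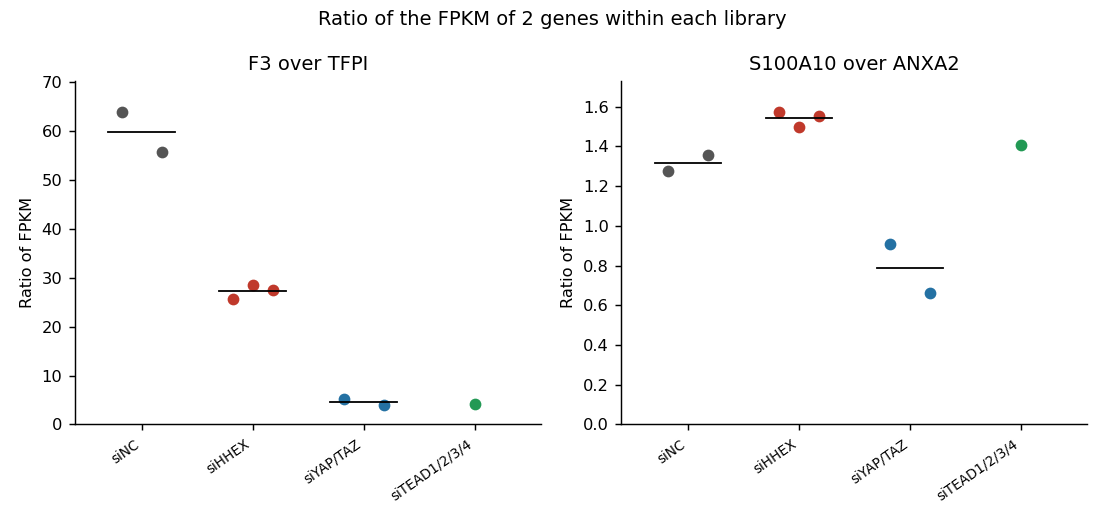
Ratio of the FPKM of *F3* to that of *TFPI* (left) and of *S100A10* to that of *ANXA2* (right) within each library, on linear axes from 0. Points are libraries and black lines are group means. The left ratio is at least 55.6 in siNC and at most 5.11 in siYAP/TAZ and siTEAD1/2/3/4, and the right ratio is under 1 in the siYAP/TAZ libraries alone.

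The other anticoagulant members were scarcely expressed. *TFPI2*, a related inhibitor of plasmin and other matrix proteases on chromosome 7 from 93885396 to 93890753, was listed at 0 in 7 libraries and at 0.0417 FPKM in siHHEX 3. *THBD*, a gene of 1 exon on chromosome 20 from 23045633 to 23049672, was at 0.201 and 0.193 FPKM in siNC, 0.221, 0.191 and 0.10 FPKM in siHHEX, 0.267 and 0.265 FPKM in siYAP/TAZ and 0.0655 FPKM in siTEAD1/2/3/4. Both were below the filter and were not tested, and the smallest level these libraries could show is not known.

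Neither activator of plasminogen passed the test against siNC. *PLAU*, on chromosome 10 from 73909177 to 73917496, was at 8.18 and 8.27 FPKM in siNC, 7.49, 8.37 and 5.60 FPKM in siHHEX, 6.91 and 6.66 FPKM in siYAP/TAZ and 7.97 FPKM in siTEAD1/2/3/4. The siHHEX libraries straddled the controls, with the widest gap between siHHEX 2 and 3. The log2 differences were -0.19 in siHHEX (SE 0.157, adjusted p = 0.347) and -0.25 for the siYAP/TAZ libraries (SE 0.172, adjusted p = 0.389).

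*PLAT*, on chromosome 8 from 42174718 to 42207709, was at 1.63 and 1.94 FPKM in siNC, 1.30, 1.46 and 1.49 FPKM in siHHEX, 2.89 and 1.80 FPKM in siYAP/TAZ and 1.12 FPKM in siTEAD1/2/3/4. The siYAP/TAZ libraries lay apart, library 1 being above every other and library 2 between the controls. The differences from siNC were -0.20 in siHHEX (adjusted p = 0.324) and 0.25 in siYAP/TAZ (adjusted p = 0.383). *PLAT* was higher in siYAP/TAZ than in siHHEX by 0.45 (SE 0.157, adjusted p = 0.0467), but this call stood in only 2 of 12 alternatives and the difference was 0.21 without siYAP/TAZ 1 (adjusted p = 0.297). *PLAU* exceeded *PLAT* in every library, by between 2.39 times in siYAP/TAZ 1 and 7.13 times in siTEAD1/2/3/4.

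*PLAUR*, the urokinase receptor on chromosome 19 from 43646095 to 43670547, was at 3.64 and 3.38 FPKM in siNC, 2.62, 2.03 and 3.33 FPKM in siHHEX, 3.38 and 2.72 FPKM in siYAP/TAZ and 3.09 FPKM in siTEAD1/2/3/4. All knockdown values lay below the controls, though siYAP/TAZ 1 and siHHEX 3 came close to siNC 2. The differences were -0.32 in siHHEX (SE 0.166, adjusted p = 0.159) and -0.16 in siYAP/TAZ (SE 0.181, adjusted p = 0.612). Its transcript is the richest in GC of the tested members (55.9%), and after the correction the siHHEX difference was -0.67 (adjusted p = 0.0259).

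*SERPINE2*, whose product inhibits thrombin, urokinase and plasmin, lies on chromosome 2 from 223975045 to 224039318. It was at 26.8 and 27.1 FPKM in siNC, 22.9, 26.9 and 27.1 FPKM in siHHEX, 34.2 and 38.5 FPKM in siYAP/TAZ and 27.3 FPKM in siTEAD1/2/3/4. The siYAP/TAZ libraries stood above all the rest, which lay close together. The siYAP/TAZ difference from siNC was 0.42 (SE 0.135, adjusted p = 0.0867). It passed in a fit of those 2 groups alone (adjusted p = 0.0401) and after the GC and length correction (adjusted p = 0.0492). In siHHEX the difference was -0.07 (adjusted p = 0.647). *SERPINE2* was higher in siYAP/TAZ than in siHHEX by 0.49 (SE 0.123, adjusted p = 0.0153). This fell to 0.41 without siYAP/TAZ 2 (adjusted p = 0.105), to 0.31 when library medians were equalised (adjusted p = 0.0613) and to 0.41 after the correction (adjusted p = 0.0573).

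*ANXA2*, on chromosome 15 from 60347134 to 60402883, was the most abundant member, at rank 172 of all genes in siNC. Its level was 288 and 280 FPKM in siNC, 195, 207 and 211 FPKM in siHHEX, 201 and 243 FPKM in siYAP/TAZ and 189 FPKM in siTEAD1/2/3/4. Every knockdown library was below both controls. In siHHEX, *ANXA2* fell by 0.47 in log2 units (SE 0.107, adjusted p = 0.0135), to 71.9% of the siNC mean. The corrected siHHEX difference was -0.49 (adjusted p = 0.0272). The call held in 8 of 12 alternatives. It was lost with the correction and replicate block together (adjusted p = 0.068) and with no filter on low values (adjusted p = 0.0608). It was also lost without siNC 1 or siNC 2, where the difference was -0.45 and -0.49. The siYAP/TAZ difference was -0.36 (SE 0.117, adjusted p = 0.0868), and that of siTEAD1/2/3/4, with no replicate, was -0.59. Leaving out 1 library moved the siYAP/TAZ difference to between -0.50 and -0.22. *ANXA2* has near-identical processed pseudogenes that may share its reads, so its level is uncertain.

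**Figure D3:**
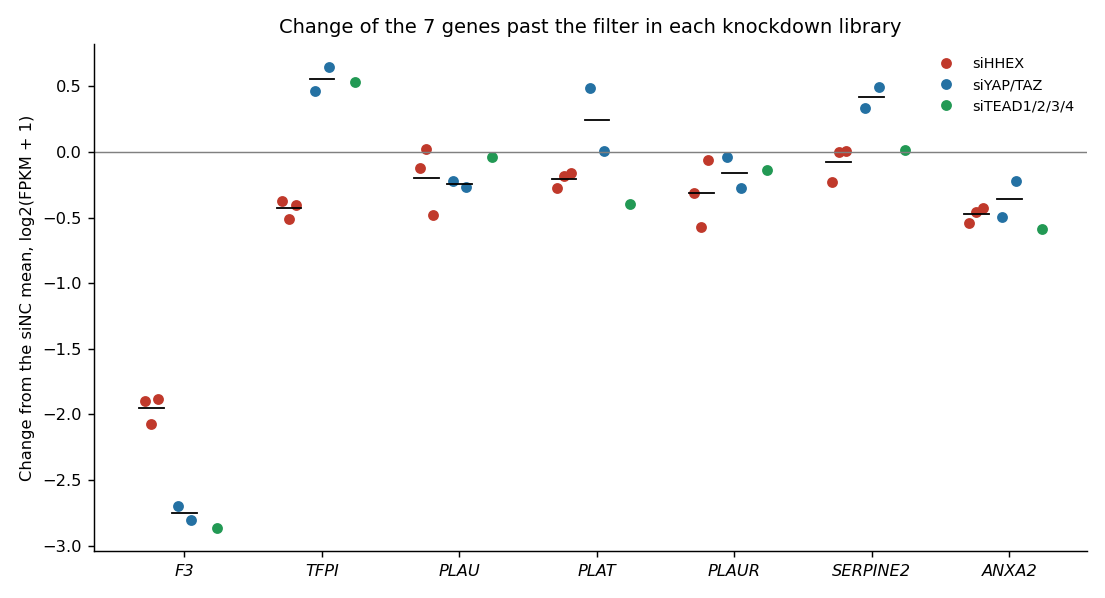
Difference of each knockdown library from the siNC mean on log2(FPKM + 1) (vertical axis) for the 7 genes past the filter on low values. Points are libraries, black lines are group means and the grey line is no difference. *F3* lies between -1.95 and -2.87 on average in the 3 knockdowns, the other genes within 0.59 of 0, and all 3 siHHEX points of *TFPI* lie below 0 and those of the other knockdowns above it.

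Counted together, 2 of the 6 members tested in siHHEX against siNC were lower, *ANXA2* and *TFPI*, where 16.9% of all tested genes were lower. None was higher, where 16% were, and all 6 had negative differences, as had 50.4% of all tested genes. After the correction those of *TFPI* and *SERPINE2* were positive. *TFPI*, under 1 FPKM in every siHHEX library, was tested only through its levels in other groups. Its siHHEX call stood in 4 of 12 alternatives. *TFPI* alone was higher in siYAP/TAZ, where 6.15% of tested genes were higher, and no member was lower (2.13%). At an unadjusted p under 0.05, *ANXA2* was lower and *SERPINE2* higher as well in siYAP/TAZ. No share over all genes was taken at that threshold, so the shares above do not apply to it. By the criterion of the study, 0 of these 6 members were counted in either comparison on either scale. On log2(FPKM + 1) few genes met it, 99 lower and 75 higher of 10677 in siHHEX. In siYAP/TAZ these counts were 46 and 122, and none was taken over all genes for the ratio of mean FPKM. With siNC 1 or siNC 2 left out, no member passed in either comparison, and over all genes the siHHEX calls were down to 9 lower and 10 higher, or 12 and 15. In siTEAD1/2/3/4, *F3* left aside, *ANXA2* was lower by more than 1.5-fold, as were 2.18% of genes, and no member was higher by as much (4.15%). *ANXA2* lay at that limit, at -0.59, and was inside it after the correction, at -0.52. Between siYAP/TAZ and siHHEX, *F3* was lower (13.5% of genes) and *TFPI*, *PLAT* and *SERPINE2* were higher (25.9%). Without *F3*, the median difference of the 6 genes was -0.26 in siHHEX, 0.04 in siYAP/TAZ and -0.09 in siTEAD1/2/3/4, beside -0.006, 0.08 and 0.06 over all tested genes. The range of the group did not overlap that of siNC for 4 lower members in siHHEX (33.8% of tested genes lower, 33.1% higher), for 3 lower and 2 higher in siYAP/TAZ (24.8% and 42.9%) and for 4 lower and 2 higher in siTEAD1/2/3/4 (35.1% and 52.3%), *F3* left aside. Between siYAP/TAZ and siHHEX, *F3* was lower without overlap (23% of genes) and 3 members were higher (37.8%). These counts were not tested against the rest.

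The correction for GC content and length left 2 members lower in siHHEX, *ANXA2* and *PLAUR*, and *TFPI* no longer passed. Over all genes 2.99% were then lower and 3.15% higher, well under the shares without the correction.

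**Figure D4:**
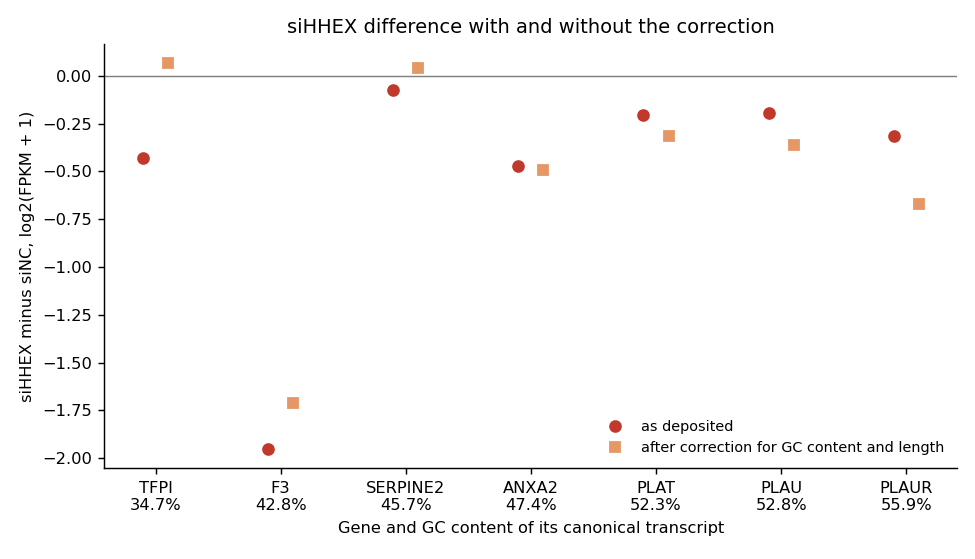
Difference between siHHEX and siNC on log2(FPKM + 1) (vertical axis) for the 7 genes past the filter, ordered from left to right by the GC content of the canonical transcript. Circles are the values as deposited and squares those once GC content and length were corrected for. *TFPI*, at 34.7% GC, moves from -0.43 to 0.065, *PLAUR*, at 55.9%, from -0.32 to -0.67, and *F3* from -1.95 to -1.71.

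The wider pathway was read from 7 lists of 63 genes, of which 14 were listed at 0 in every library and 24 were tested. In siHHEX, 4 were lower, 4 were higher and 16 did not pass, with a median difference of 0.13, and these shares are close to the 16.9% lower and 16% higher among all tested genes. In siYAP/TAZ, 4 were lower, 2 were higher and 18 did not pass, with a median of -0.090, where 2.13% of all tested genes were lower and 6.15% higher. Without siNC 1 or siNC 2, 0 list genes passed in siHHEX and 2 or 1 in siYAP/TAZ. The siHHEX count was 3 without siHHEX 1 and 4 without siHHEX 3, and the siYAP/TAZ count 2 without siYAP/TAZ 2. Of the 16 factors of the clotting cascade, 7 were listed at 0 throughout, as were 3754 of all 20030 rows. *F7*, the ligand of tissue factor, was among these 7. *F12*, which starts the contact pathway, was the only one tested. It rose in siHHEX from a mean of 6.62 to 10.6 FPKM, by 0.59 in log2 units (SE 0.178, adjusted p = 0.0326). *F12* is rich in GC (65.0%), and after the correction its difference was 0.16 (adjusted p = 0.487). Among the anticoagulants, *PROS1*, the gene of protein S, a cofactor of both activated protein C and TFPI, was at 2.43 and 2.49 FPKM in siNC and rose to 4.09 and 6.06 FPKM in siYAP/TAZ. The difference of *PROS1* was 0.79 (SE 0.169, adjusted p = 0.0265), or 0.56 without siYAP/TAZ 2, the library that holds the higher value (adjusted p = 0.148). The call stood in 7 of 11 alternatives and was lost without siNC 1 (adjusted p = 0.202) or siNC 2 (adjusted p = 0.189) as well.

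Tissue factor complexes and thrombin signal through protease-activated receptors, 2 of which were tested, and both fell in siHHEX, where 16.9% of all tested genes did. After the correction 1 of them, *F2RL1*, still passed, where 2.99% of all genes were lower. *F2RL1*, which encodes PAR2, the receptor cut by the tissue factor complex, was at 90.7 and 89.2 FPKM in siNC, 38.6, 52.6 and 46.2 FPKM in siHHEX, 92.4 and 60.5 FPKM in siYAP/TAZ and 66.1 FPKM in siTEAD1/2/3/4. It fell by 0.97 in siHHEX (SE 0.185, adjusted p = 0.0087), and still by 0.75 after the correction (adjusted p = 0.0488). In siYAP/TAZ the difference was -0.26 (adjusted p = 0.437), and it was 0.039 without siYAP/TAZ 2. *F2R*, the thrombin receptor PAR1, was at 5.31 and 5.31 FPKM in siNC, 3.82, 3.55 and 3.94 FPKM in siHHEX, 7.97 and 7.06 FPKM in siYAP/TAZ and 5.13 FPKM in siTEAD1/2/3/4. *F2R* fell by 0.41 in siHHEX (adjusted p = 0.0316), and its difference was -0.14 after the correction (adjusted p = 0.512). The siYAP/TAZ difference of *F2R* was 0.43 (adjusted p = 0.0738), and the knockdowns differed from each other by 0.83 (SE 0.120, adjusted p = 0.0041), a call that held in 12 of 12 alternative fits and was lost by the criterion of the study, the difference being under 2-fold.

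Of the genes that assist clotting in the cell, *ANO6*, a scramblase that exposes phosphatidylserine for the clotting complexes, fell in siHHEX from a mean of 9.41 to 4.40 FPKM. Its difference was -0.98 (SE 0.208, adjusted p = 0.0112), and -0.62 after the correction (adjusted p = 0.0589). *P4HB* and *VKORC1*, named after their values were seen, rose in siHHEX by 0.50 (adjusted p = 0.0366) and 0.38 (adjusted p = 0.0474). After the correction their differences were 0.21 and -0.13. None of the 6 genes of this list passed limma's test in siYAP/TAZ, where 2.13% of all tested genes were lower and 6.15% higher. At an unadjusted p under 0.05, a threshold at which no share over all genes was taken, 0 passed.

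*PLG*, the gene of plasminogen itself, was listed at 0 in all 8 libraries. *SERPINI1*, the gene of neuroserpin, an inhibitor of *PLAT*'s product, was named after its values were seen. It was at 1.64 and 1.39 FPKM in siNC, 2.28, 1.77 and 1.37 FPKM in siHHEX, 2.56 and 6.46 FPKM in siYAP/TAZ and 3.58 FPKM in siTEAD1/2/3/4. The siYAP/TAZ libraries lay above both controls but far apart from each other. The *SERPINI1* difference was 0.14 in siHHEX (adjusted p = 0.689) and 1.04 in siYAP/TAZ (SE 0.298, adjusted p = 0.0624), or 1.07 after the correction (adjusted p = 0.0366).

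Of 4 tested receptors for plasminogen and urokinase, 3 fell in siYAP/TAZ where 2.13% of all tested genes did. Among those below the filter, *LRP1* and *MRC2* averaged 0.893 and 1.06 FPKM in siYAP/TAZ, against 0.282 and 0.394 FPKM in siNC. *VTN* was at 0.0484 FPKM or less in every library. In siHHEX none of the 4 tested receptors passed limma's adjusted test, where 16.9% of all tested genes were lower. *S100A10* had an unadjusted p under 0.05, a threshold at which no share over all genes was taken. After the GC and length correction *S100A10* and *KRT8* passed as lower, where 2.99% of all genes did. *S100A10*, the partner of annexin A2, was at 367 and 380 FPKM in siNC, 306, 310 and 328 FPKM in siHHEX, 182 and 161 FPKM in siYAP/TAZ and 265 FPKM in siTEAD1/2/3/4. It fell by 1.12 in siYAP/TAZ (SE 0.104, adjusted p = 0.0020), a call that held in 11 of 11 alternatives, while the siHHEX difference was -0.25 (adjusted p = 0.0707), or -0.43 after the correction (adjusted p = 0.0432). The knockdowns differed by -0.87 for *S100A10* (SE 0.0952, adjusted p = 0.0028). The ratio of *S100A10* to *ANXA2* was 1.28 and 1.36 in siNC, 1.57, 1.5 and 1.56 in siHHEX, 0.908 and 0.664 in siYAP/TAZ and 1.41 in siTEAD1/2/3/4. The transcripts of the 2 partners thus stood in a different proportion in siYAP/TAZ, below every other library.

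*KRT8*, better known as a keratin of simple epithelia and able to bind plasminogen at the surface, was at 1591 and 1707 FPKM in siNC and 898 and 897 FPKM in siYAP/TAZ, a fall by 0.88 (SE 0.0870, adjusted p = 0.0023). The siHHEX difference of *KRT8* was 0.036 (adjusted p = 0.738), and -0.35 after the correction (adjusted p = 0.0481). *ENO1*, a glycolytic enzyme that also serves as a plasminogen receptor, fell in siYAP/TAZ by 0.49 (SE 0.0943, adjusted p = 0.0199), from a mean of 788 to 561 FPKM. *KRT8* is also one of the epithelial markers, of which 2 of 5 tested fell in siYAP/TAZ (2.13% of all tested genes) and 2 of 5 in siHHEX (16.9%), *KRT18* in both, with *KRT8* in the former and *EPCAM* in the latter. After the correction the siHHEX difference was -0.27 for *EPCAM* (limma, adjusted p = 0.105) and -0.69 for *KRT18* (adjusted p = 0.0048). *PLGRKT*, the remaining receptor tested and also named after its values were seen, had a siYAP/TAZ difference of 0.30 (adjusted p = 0.328).

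Of 8 tested matrix and membrane proteases and inhibitors, 1 fell and 1 rose in each comparison with siNC, and in siHHEX both shares are below those of all tested genes (16.9% and 16%), while in siYAP/TAZ these were 2.13% and 6.15%. *MMP14*, a membrane protease that activates other matrix enzymes, was at 1.65 and 1.59 FPKM in siNC, 2.85 and 3.12 FPKM in siYAP/TAZ and 3.40 FPKM in siTEAD1/2/3/4. It rose by 0.60 in siYAP/TAZ (SE 0.138, adjusted p = 0.0334), a call that stood in 5 of 11 alternatives and was lost without either siYAP/TAZ library (adjusted p = 0.0539 without siYAP/TAZ 1 and 0.163 without siYAP/TAZ 2). *ST14*, matriptase, fell by 0.57 in siYAP/TAZ (adjusted p = 0.0400). In siHHEX, *TIMP2* fell by 0.47 (adjusted p = 0.0205) and *SPINT2* rose by 0.37 (adjusted p = 0.0310), the latter being at 0.064 after the correction. The *TIMP2* difference was -0.48 in siYAP/TAZ (adjusted p = 0.0581) and -1.05 in siTEAD1/2/3/4, with no replicate. *ST14*, *TIMP2* and *SPINT2* were named after their values were seen.

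**Figure D5:**
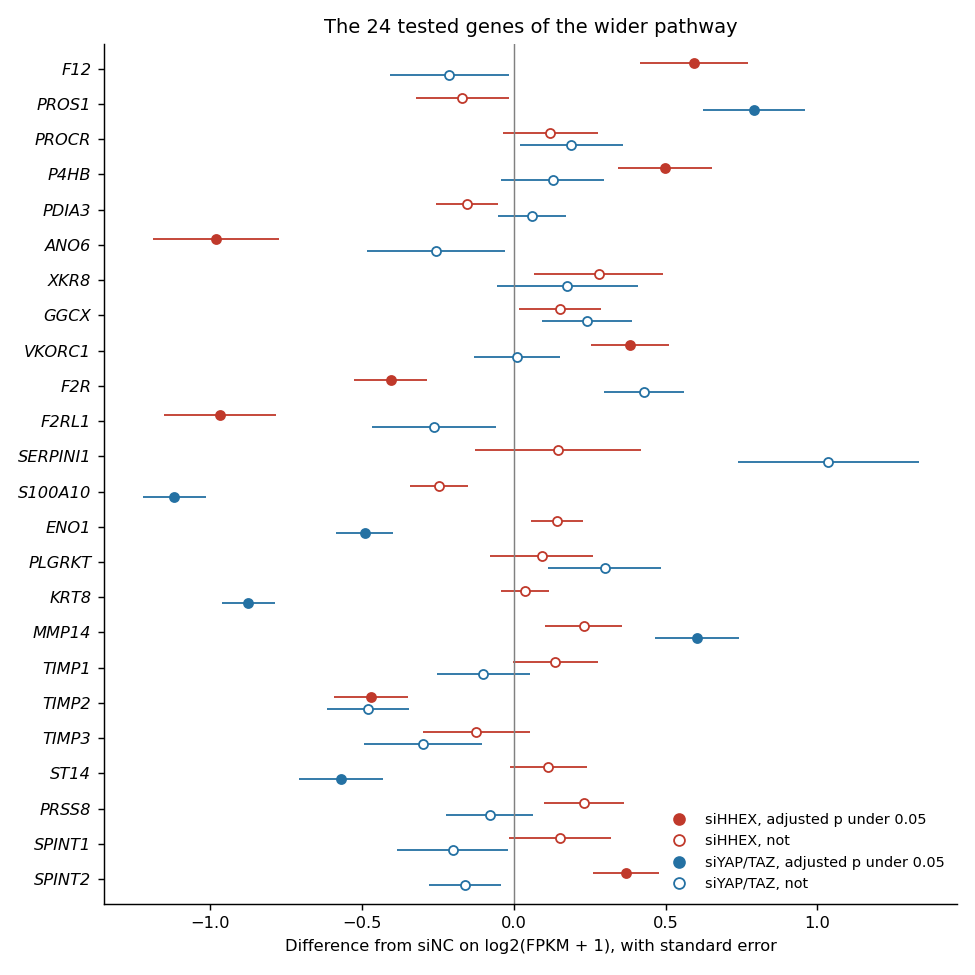
Difference from siNC on log2(FPKM + 1) (horizontal axis) with its standard error for the 24 tested genes of the 7 lists, in siHHEX (red) and siYAP/TAZ (blue), which share the siNC libraries. Filled points passed an adjusted p of 0.05 in limma and open points did not. *ANO6* and *F2RL1* are the lowest siHHEX values, and *S100A10* and *KRT8* the lowest siYAP/TAZ values.

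Over the 8 libraries, the genes whose log2(FPKM + 1) followed that of *F3* most closely were *ARID3B* (Pearson's r 0.982), *ANXA3* (0.965), *KRT81* (0.955), *HK2* (0.955) and *EZR* (0.950). *ANXA3*, an annexin, was at 139 and 127 FPKM in siNC, 70.3, 78.8 and 80.9 FPKM in siHHEX, 59.6 and 44.1 FPKM in siYAP/TAZ and 51.1 FPKM in siTEAD1/2/3/4, with the siNC libraries highest and the siHHEX libraries next, as for *F3*. *EZR*, which links membrane to actin, went from 527 and 531 FPKM in siNC to between 275 and 418 FPKM in the knockdowns. Among the members the coefficient was 0.813 for *ANXA2*, 0.418 for *PLAUR*, 0.406 for *PLAU*, 0.033 for *PLAT*, -0.384 for *TFPI* and -0.436 for *SERPINE2*. *MMP14* stood at the other end of the pathway lists, at -0.887. These coefficients describe 8 libraries in 4 groups that share controls, and leaving out 1 library kept between 1 and 3 of the 5 names.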

How the data were processed

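The FPKM values, 1 for each gene in each library, were deposited by the authors, who isolated RNA with Trizol and used an Illumina HiSeq instrument. The submitters' processing notes name Trimmomatic 0.36, HISAT2 2.0.5, HTSeq 0.9.1 and Cufflinks 2.2.1. The genome build of these files is not given in the sources used here. Strand and multi-mapping settings are likewise unknown here. FPKM is relative to the total of a library, and no further scaling was added. Of 20030 rows, the 10677 with at least 1 FPKM in at least 2 of 8 libraries were fitted with limma 3.58.1 (R 4.3.3) on log2(FPKM + 1), in 1 model with 4 groups and a variance trend, and called at a Benjamini-Hochberg adjusted p under 0.05. The authors used DESeq, which was not used here, as the deposited values are FPKM. The fit was tested on simulated data.

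Gene positions, exons, GC content and length came from GENCODE 44 (GRCh38) by symbol. The correction fitted natural splines (4 degrees of freedom each) for GC content and log length in each library, for 99.4% of tested genes. The members and lists were chosen with earlier results of these data known, and 1 further list gene is not reported here. Genes named are the members, list genes called beyond 1.5-fold against siNC, the 3 most abundant list genes, *S100A10*, *F2RL1*, *F2R* and *PLG*, the siRNA targets, cell type markers and the 5 genes most like *F3*. *F7*, *P4HB*, *VKORC1*, *SERPINI1*, *ST14*, *TIMP2*, *SPINT2*, *PLGRKT*, *LRP1*, *MRC2* and *VTN* fall outside this rule and were named after their values were seen. Alternatives were another pseudocount, no filter, the compared groups alone, the replicate number as a block, median scaling, the correction with and without the block, the study's criterion (on log2(FPKM + 1) and, added after seeing the data, on ratios of mean FPKM), a ratio of means, Spearman's rho and leaving out each library. Tables and figures used Python 3.11.15, pandas 2.3.3, numpy 2.4.6 and matplotlib 3.10.9.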

Additional observations from a re-analysis of the deposited data

How the results depend on the processing

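Of 525 values of single genes in alternative fits, 397 left the call as it was, 101 lost it, 9 gained it and 18 changed sign. The study's criterion was applied with the fold on log2(FPKM + 1), which understates the fold of low genes. Of all 10677 genes it counted 99 lower and 75 higher in siHHEX and 46 and 122 in siYAP/TAZ. Between the knockdowns it counted 25 and 137. With the fold as a ratio of mean FPKM, an alternative chosen after seeing the data, the criterion counted 0 members and 1 list gene (*ANO6*) in siHHEX. In siYAP/TAZ it counted 0 members and 3 list genes (*PROS1*, *S100A10* and *SERPINI1*). Between the knockdowns it counted 1 member (*TFPI*) and 2 list genes (*PROS1* and *SERPINI1*). No count over all genes was taken with that ratio. The number of members called in siHHEX, 2 as reported, was 0 with no filter, 1 with the replicate block, 1 with median scaling, 1 with the GC and length correction and the block together, 0 by the study's criterion, and between 0 and 2 without 1 library. In siYAP/TAZ, 1 as reported, it was 0 with a pseudocount of 0.1, with no filter, with the replicate block and by the study's criterion, 2 in the groups compared alone and after the correction, and between 0 and 1 without 1 library. Between siYAP/TAZ and siHHEX, 4 as reported, it was 2 with median scaling, 1 with the correction and block, 0 by the study's criterion and 3 without any 1 siHHEX library. For the pathway lists, the siHHEX count of 8 was 1 with no filter, 2 with the block, 4 after the correction, 0 with the correction and block, 0 by the study's criterion, and between 0 and 10 without 1 library. The siYAP/TAZ count of 6 was 2 with no filter, 2 by the study's criterion, and between 1 and 6 without 1 library. The count of 13 between the knockdowns was 7 with no filter, 6 after the correction, 3 with the correction and block, 0 by the study's criterion, and between 6 and 15 without 1 library. With 1 siNC library left, which is then assumed to vary like the other groups, siHHEX calls over all genes fell from 1806 lower and 1712 higher to 9 and 10 without siNC 1 and 12 and 15 without siNC 2, and no member was called there.

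The siHHEX difference of *F3* was -1.71 after the correction and -1.79 with the correction and block. In siYAP/TAZ it was -2.85 with a pseudocount of 0.1 and -2.86 both with median scaling and as a ratio of means. In siTEAD1/2/3/4 it was -2.97, -2.93 and -2.99 with these settings and -2.76 after the correction. Spearman's rho kept 1 of the 5 genes most like *F3*, and leaving out 1 library kept between 1 and 3. Signs turned in siHHEX after the correction for *TFPI* (0.065), *SERPINE2* (0.039), *KRT8* (-0.35, or -0.32 with the block), *MMP14* (-0.044 or -0.0037), *PROS1* (0.22 or 0.20) and *ENO1* (-0.13 or -0.12). Between the knockdowns they turned for *PLAU* (0.15) after the correction and for *PLAUR* (-0.020) and *ANXA2* (-0.063) with median scaling. Without 1 library, the range was -0.12 to 0.0020 for *SERPINE2* and -0.015 to 0.087 for *KRT8* in siHHEX, -0.56 to 0.039 for *F2RL1* in siYAP/TAZ, and -0.20 to 0.057 for *PLAU* and -0.024 to 0.25 for *ANXA2* between the knockdowns. The cause of these turns was not tested, except that the correction acts on GC content and length alone.

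Over all genes, the siHHEX counts were 412 lower and 575 higher with no filter, 1039 and 1023 with the block, and 317 and 334 after the correction (98 and 57 with the block), and 969 and 1140 without siHHEX 1. The siYAP/TAZ counts, 227 and 657, were 66 and 142 with no filter, 539 and 1220 in the groups compared alone, and 349 and 979 after the correction. They were 174 and 416 without siHHEX 1 and 369 and 948 without siHHEX 2. Without siYAP/TAZ 2, siNC 1 or siNC 2, fits that leave 1 library in a group, they were far lower. Those between the knockdowns, 1437 and 2763, were 812 and 1398 with no filter, 246 and 696 after the correction (53 and 221 with the block), and 408 and 618 without siYAP/TAZ 2. Median scaling moved the median gene between siYAP/TAZ and siHHEX from 0.129 to -0.0472 and changed the split there to 2508 lower and 1385 higher. It changed the split in siYAP/TAZ to 345 and 333 and in siHHEX to 1440 and 2210. Deviations from the group means in libraries of equal number had correlations between -0.0704 and 0.0215. Within a group of 2 libraries the deviations mirror each other, so these correlations are not independent. They cannot tell whether libraries of equal number shared a culture or a batch. The replicate block left *TFPI* out of the calls against siNC (adjusted p = 0.0669 in siHHEX and 0.0522 in siYAP/TAZ) and *PLAT* from those between the knockdowns. Depth is unknown, so the floor behind a value of 0 is unknown too. The single siTEAD1/2/3/4 library has no spread of its own, and no test was run on it.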
